A study of Mus musculus with 63 samples.

Results

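The change of mouse embryonic stem (ES) cells carrying a Yy1 overexpression construct (oeYy1) over 6 days in a medium named F4H was measured from 4 RNA-seq count tables, 2 of undifferentiated cells and 2 of day 6 cells. They belong to a series of 63 samples on YY1 in ES and extended pluripotent stem cells, of which 22 have a count table and 16 entered the model used here. The cells are C57BL/6 ES cells kept in serum-free 2i medium, and the labels allow either Matrigel or a layer of mitomycin-treated fibroblasts as the support. The members were taken by their titles, and the 4 matching libraries of ES cells with a control construct (oeCtrl), also undifferentiated and on day 6 of F4H, served for comparison. The oeYy1 cells of both days carry the same construct, so the change described is that of Yy1-overexpressing cells. Whether Yy1 contributes to that change was not tested, and its level differed between the days. The composition of F4H, the promoter of the construct, and whether a line is a clone or a pool are not given in the sources used here. The names of the day 6 control tables give no construct, so these libraries were assigned by title. Whether replicates are separate cultures is not stated, and the spread behind each p-value may therefore be technical. All undifferentiated libraries came in one submission and all day 6 libraries in another, so the day and the submission cannot be told apart in any value of the response.

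YY1 is a zinc finger transcription factor that binds many promoters and enhancers and is known as a partner of chromatin remodellers and as a factor that joins enhancers to promoters. ES cells in 2i hold a naive state in which blockade of ERK signalling and activation of Wnt signalling keep factors such as Nanog, Esrrb and Klf4 high. On leaving that state, mouse cells lose the naive factors, take up de novo DNA methylation, and can pass through a formative epiblast state towards the primitive streak, endoderm, or, less readily, trophoblast.

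The 4 oeYy1 libraries held 14193750 to 15283095 counts on genes, and the 16 libraries of the model 13672061 to 19932675. CPM stands for counts scaled to a common library size (TMM-normalised). A library without a count for a gene allows a level of up to 0.201 to 0.219 CPM in these cells, from a floor of 3 counts, and this limit accounts for counting error alone. Other measures of the libraries moved with the day in both lines. Reads assigned to the mitochondrial genome made up 2.87 and 3.05% of gene counts in undifferentiated oeYy1 cells and 1.38 and 1.64% on day 6, and ambiguous reads went from 5.01 and 5.11% to 3.71 and 3.70%. Their part in the results was not tested. Medians of the response per autosome lay between -0.21 and 0.34 on the log2 scale. All 6 markers fixed for undifferentiated ES cells were high in both undifferentiated oeYy1 libraries, from Pou5f1 as the lowest at 229 and 236 CPM to Nanog as the highest at 1215 and 1172 CPM.

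Yy1 (chr12:108792945-108820148, GRCm38.p6), the gene on the construct, stood at 958 and 974 CPM in undifferentiated oeYy1 cells and at 324 and 320.5 CPM on day 6. In oeCtrl cells it stood at 122 and 128 CPM before and 124 and 129 CPM on day 6. Both oeYy1 groups lay above all oeCtrl libraries, and the groups did not overlap. The level in oeYy1 cells fell by 1.58 on the log2 scale (SE 0.07, adjusted p = 6.74e-15), and the fall exceeded the change in oeCtrl cells by 1.60 (SE 0.10, adjusted p = 1.56e-10). The counts do not separate construct from endogenous transcripts. The other family member that passed the filter, Zfp42 (Rex1), a naive marker, fell from 543 and 542 CPM to 7.08 and 6.19 CPM, while Yy2 had no count in the 4 libraries.

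Most of the transcriptome moved between the undifferentiated and the day 6 libraries. Of 17207 genes tested, 6148 (35.7%) were called higher on day 6 and 6354 (36.9%) lower at an adjusted p under 0.05. At least 2-fold, 4127 (24.0%) were higher and 3448 (20.0%) lower, and the median change over all genes was -0.03 on the log2 scale. The counts of list members called below are to be read against these shares. The lists were chosen with earlier results of these data known, so such comparisons are descriptions and not tests. In bulk RNA, fewer cells of a type and less RNA per cell cannot be told apart.

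**Figure D1:**
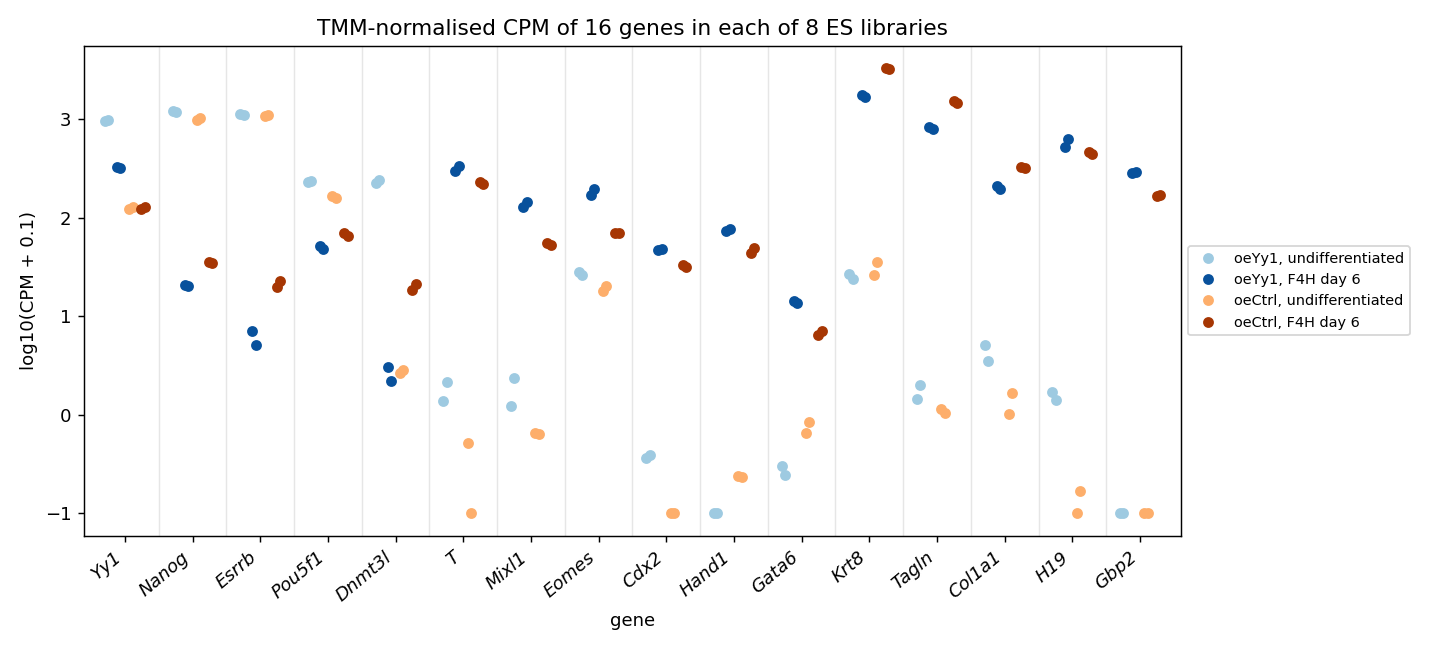
TMM-normalised CPM, plotted as log10(CPM + 0.1), of 16 genes in each of the 8 ES libraries, with 1 point per library and 1 colour per group. Nanog, Esrrb and Pou5f1 were lower and T, Mixl1, Cdx2, Krt8, Tagln and Gbp2 higher on day 6 in both lines, while Dnmt3l moved in opposite directions and Yy1 fell in oeYy1 cells.

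The naive pluripotency network was lost. All 17 listed naive factors were called lower and at least 2-fold lower, with a median of -5.86 on the log2 scale and a range from -11.35 to -1.05. Nanog stood at 1215 and 1172 CPM before and at 20.9 and 20.1 CPM on day 6 (log2 change -5.86, SE 0.09, adjusted p = 1.14e-21). Esrrb, an orphan nuclear receptor of the naive state, went from 1132 and 1104 CPM to 7.08 and 5.02 CPM (log2 change -7.53, adjusted p = 1.62e-17). Tfcp2l1, a naive transcription factor downstream of LIF, dropped from 1113 and 1101 CPM to 13.4 CPM in both libraries. Klf4, which promotes the naive state, kept more of its level, from 426 and 398 CPM to 18.9 and 21.5 CPM. Tcl1, a coactivator of AKT, had 117 and 100.2 CPM before and 1 count in all on day 6, a ratio of 3190 with a 95% counting interval from 573 to 126000.

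Core factors shared by naive and primed cells fell less. Of 12 core genes, 10 were called lower and 2 higher, with a median of -2.16. Pou5f1 (Oct4) stood at 229 and 236 CPM before and at 51.4 and 47.8 CPM on day 6, a log2 change of -2.23 (SE 0.08, adjusted p = 3.33e-16). Sox2, its partner on DNA, went from 478 and 471 CPM to 34.0 and 36.8 CPM (log2 change -3.74, adjusted p = 2.47e-19). Fgf4, the main FGF ligand made by ES cells and a target of both, went from 264.5 and 274 CPM to 1.57 and 2.41 CPM. The 2 genes that rose were Lin28a, from 68.7 and 73.3 CPM to 408 and 393 CPM, and Lin28b, from 12.8 and 14.3 CPM to 76.3 and 77.9 CPM. Both encode RNA-binding proteins that block maturation of let-7 microRNAs.

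Formative and primed epiblast genes split. Of 18, 11 were called higher and 5 lower. Fgf8, a ligand of the primitive streak, rose from 0.336 and 0.292 CPM to 110.3 and 109 CPM (log2 change 8.41, SE 0.21, adjusted p = 9.13e-19). Fgf5, the classical marker of the formative epiblast, had 2 counts in all before and 12.5 and 14.6 CPM on day 6, a ratio of 202 with a counting interval from 55.9 to 1670. Sox11, a SoxC factor, rose from 16.4 and 15.8 CPM to 267.5 and 274 CPM, and Sox4 of the same family from 4.16 and 3.50 CPM to 90.1 and 88.7 CPM. Members that fell included Foxd3, from 32.1 and 33.0 CPM to 0.681 and 0.412 CPM, and Otx2, from 12.2 and 11.8 CPM to 4.70 and 6.39 CPM, both regulators of the exit from naive pluripotency.

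Genes of the primitive streak were among the strongest rises. Of 14 mesendoderm factors, 11 were called higher and none lower, with a median of 4.92, or 3.81 with genes lacking counts in a group set at the floor. T (Brachyury), the T-box factor of the streak, stood at 1.28 and 2.04 CPM before and at 299.7 and 336.5 CPM on day 6 (log2 change 7.59, SE 0.48, adjusted p = 5.43e-07). Mixl1, a homeobox factor of mesendoderm, rose from 1.14 and 2.26 CPM to 128 and 143 CPM. Evx1, a homeobox gene of the posterior streak, rose from 2.08 and 1.46 CPM to 119.5 and 115.5 CPM. Wnt3, the ligand that starts the streak in the mouse embryo, rose from 0.940 and 0.802 CPM to 99.0 and 101.6 CPM. Lhx1 and Msgn1, regulators of streak derivatives and of presomitic mesoderm, had no count in the undifferentiated libraries and reached 41.8 and 46.0 CPM and 27.2 and 22.8 CPM, at least 209-fold and at least 119-fold higher. Cer1, a secreted antagonist of Nodal, had no count in the 4 libraries. Foxa2, an endoderm regulator, was called higher at low levels, from 0 and 0.438 CPM to 0.954 and 0.756 CPM (adjusted p = 0.0211), and Gsc, an organiser gene like Lhx1, from 3.76 and 5.40 CPM to 7.15 and 7.29 CPM (adjusted p = 0.0115).

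Among lateral and cardiac mesoderm factors, 11 of 14 were called higher and 1 lower. The lower count depended on the libraries fitted, and was 2 with only the 8 ES libraries or only the 4 compared. Hand1, a basic helix-loop-helix factor of trophoblast giant cells and of extraembryonic and cardiac mesoderm, had no count before and 73.7 and 77.5 CPM on day 6, at least 359.7-fold higher. Cardiac contractile genes were mostly at low levels. Of 12 that passed the filter, 8 were called higher and 3 lower, with Tnnt2 at 6.88 and 5.02 CPM and Myh7 at 12.4 and 17.3 CPM on day 6. Of 15 endothelial and blood genes, 6 were higher and 3 lower, among them Kdr, the VEGF receptor of mesodermal progenitors, from 1.28 and 1.17 CPM to 24.5 and 28.3 CPM. Tal1, the blood regulator, stood at 0.341 and 1.17 CPM on day 6 and was not called. Pecam1, an endothelial adhesion gene that naive ES cells also express, fell from 105 and 104.5 CPM to 1.84 and 1.38 CPM.

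Trophoblast genes moved in both directions. Of 17 transcription factors that passed the filter, 11 were called higher and 6 lower. Cdx2, the caudal factor of the trophectoderm and of posterior mesoderm, stood at 0.269 and 0.292 CPM before and at 46.6 and 47.8 CPM on day 6 (log2 change 7.36, SE 0.56, adjusted p = 4.20e-07). Gata3 rose from 0.403 and 0.365 CPM to 22.5 and 24.0 CPM, and Eomes, used by trophoblast stem cells and by the streak alike, from 28.0 and 26.3 CPM to 169 and 194 CPM. Tfap2c, needed by trophoblast and also expressed in naive cells, fell from 119 and 126 CPM to 16.4 and 17.7 CPM. Elf5, the gatekeeper of the trophoblast stem cell fate, did not pass the filter, with 0 to 5 counts in each of the 4 libraries. Of 20 placental hormones and effectors, 7 passed the filter, which rests on groups where a gene is high, and the rest were near 0. Prl3d1, Prl3b1, Tpbpa and Synb, markers of giant cells, spongiotrophoblast and syncytiotrophoblast, had no count in the 4 libraries. Peg10, an imprinted retrotransposon-derived gene needed for the placenta, rose from 39.6 and 42.0 CPM to 7515 and 7818 CPM (log2 change 7.55, SE 0.64, adjusted p = 5.27e-06).

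Primitive endoderm regulators were mostly higher. Of 14 primitive endoderm regulators, 10 were called higher and 3 lower. Gata6, the zinc finger factor that specifies this lineage, rose from 0.201 and 0.146 CPM to 14.4 and 13.6 CPM (log2 change 6.26, SE 0.41, adjusted p = 1.34e-11), and Gata4 from 5.44 and 5.76 CPM to 24.4 and 28.7 CPM. Pdgfra, a receptor on primitive endoderm and on mesoderm, rose from 0.940 and 0.875 CPM to 15.0 and 16.4 CPM. Sox17, the SOX factor of endoderm, stood at 1.88 and 1.39 CPM before and 1.36 and 0.962 CPM after and was not called (adjusted p = 0.216). Hnf4a had no count on day 6. Of 20 visceral endoderm genes, 12 passed the filter, of which 1 was called higher and 5 lower. Both counts depended on the libraries fitted. With the 4 libraries alone the 5 became 3 and the 1 became 2. The 1 also became 2 with only the 8 ES libraries, with RLE size factors, and with mitochondrial genome genes left out. Afp and Ttr, secreted products of visceral endoderm, had 1 count each in the 4 libraries together, and Apoe fell from 618 and 595.5 CPM to 199 and 193 CPM.

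Parietal endoderm and basement membrane genes were mostly higher. In the parietal list 13 of 16 were called higher and 1 lower, and in the basement membrane list 17 of 21 and 4. Col4a1 and Col4a2, the paired chains of collagen IV, rose from 23.0 and 24.5 CPM to 859.9 and 869 CPM and from 4.90 and 7.66 CPM to 586 and 577 CPM. Lamb1, a laminin beta chain, rose from 45.7 and 43.8 CPM to 444.5 and 425 CPM. Lama1, the laminin alpha chain of the early embryo, went the other way, from 186.5 and 199 CPM to 18.2 and 18.8 CPM (log2 change -3.38, SE 0.12, adjusted p = 5.71e-16), as did Nid2, a nidogen, from 628 and 617.5 CPM to 238 and 236 CPM. Lamc1, which pairs with these chains, fell by 0.55 on the log2 scale.

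Contractile and actin-binding genes were almost all higher on day 6. Serum response factor (SRF) drives such genes through the CArG box, in which 6 A or T bases lie between CC and GG. Of 20 listed smooth muscle and SRF target genes, 18 were called higher and 1 lower, against 35.7% called higher among all genes, with a median of 3.97. Tagln, an actin-binding protein of smooth muscle, stood at 1.34 and 1.90 CPM before and at 827 and 790.1 CPM on day 6 (log2 change 8.97, SE 0.13, adjusted p = 2.38e-22). Acta2, smooth muscle actin, rose from 0.0671 and 0.219 CPM to 217 and 236 CPM (log2 change 10.59, adjusted p = 6.26e-21). Cnn1, calponin, had 2 counts in all before and 57.0 and 56.6 CPM after, a ratio of 811 with a counting interval from 225 to 6700. Tpm1, a tropomyosin expressed before as well, rose from 100.2 and 96.8 CPM to 2541 and 2704 CPM. Srf itself also rose, by less than the list median, from 88.6 and 95.4 CPM to 145 and 155 CPM (log2 change 0.71, adjusted p = 6.87e-08).

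The RefSeq promoter windows (GRCm38.p6, 250 bases before to 50 after the start) covered 17 of the 20 list members. A CArG box lay in 4 of these genes, or 23.5%, against 1.64% of 11676 tested genes with a window and 1.63% of all 32851 windows. The list was chosen as targets of SRF, which reads this box, so the share says nothing about the response. The 4 windows are shown because they carry the sequence element that names the list. They are printed 5′ to 3′ on the strand of the gene with each box in capitals. The search read both strands, and the box is its own reverse complement in form.
Myl9, chr2:156775214-156775513, plus strand: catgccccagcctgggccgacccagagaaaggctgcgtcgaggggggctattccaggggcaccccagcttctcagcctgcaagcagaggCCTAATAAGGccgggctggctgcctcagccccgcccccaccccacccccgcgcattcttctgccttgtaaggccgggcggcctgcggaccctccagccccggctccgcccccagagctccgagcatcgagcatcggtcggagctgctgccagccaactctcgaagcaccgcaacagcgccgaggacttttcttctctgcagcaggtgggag
Cnn2, chr10:79988350-79988649, plus strand: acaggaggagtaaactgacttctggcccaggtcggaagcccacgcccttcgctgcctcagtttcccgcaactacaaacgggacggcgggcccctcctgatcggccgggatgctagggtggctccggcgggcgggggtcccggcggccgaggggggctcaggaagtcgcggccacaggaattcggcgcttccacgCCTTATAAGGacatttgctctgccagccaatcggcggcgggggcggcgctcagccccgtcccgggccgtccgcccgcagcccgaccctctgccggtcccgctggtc
Vcl, chr14:20929148-20929447, plus strand: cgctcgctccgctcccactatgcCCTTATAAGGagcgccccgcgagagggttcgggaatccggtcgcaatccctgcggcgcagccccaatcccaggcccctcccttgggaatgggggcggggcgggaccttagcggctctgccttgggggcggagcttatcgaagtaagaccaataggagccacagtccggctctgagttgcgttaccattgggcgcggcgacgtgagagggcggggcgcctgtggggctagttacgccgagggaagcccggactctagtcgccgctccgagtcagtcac
Srf, chr17:46556113-46556412, minus strand: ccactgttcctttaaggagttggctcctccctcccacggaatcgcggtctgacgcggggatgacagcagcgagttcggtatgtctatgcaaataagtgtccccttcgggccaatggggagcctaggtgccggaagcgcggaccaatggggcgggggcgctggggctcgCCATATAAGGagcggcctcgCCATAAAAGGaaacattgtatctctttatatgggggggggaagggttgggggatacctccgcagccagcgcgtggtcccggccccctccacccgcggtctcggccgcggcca
The box begins 161 bases before the annotated start in Myl9, 56 in Cnn2, 227 in Vcl, and 82 and 62 in Srf. Of these genes Myl9, a myosin light chain, rose from 0.134 and 0.219 CPM to 36.2 and 33.7 CPM. Cnn2, a calponin of non-muscle cells, rose from 16.7 and 12.5 CPM to 508 and 519 CPM. Vcl, vinculin of focal adhesions, rose from 92.5 and 87.9 CPM to 400.4 and 394 CPM. Windows of Acta2 and Cnn1 hold no match to these letters, and a match is a description of the sequence only.

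All 12 YAP-TEAD targets in the tables were called higher and at least 2-fold higher, with a median of 3.27. Cyr61 and Ctgf, secreted matrix proteins and standard readouts of YAP, rose from 26.3 and 32.7 CPM to 918 and 926.5 CPM and from 4.30 and 5.18 CPM to 64.2 and 57.9 CPM. Thbs1, thrombospondin, was among the 12 largest rises of all, from 0.269 and 0.656 CPM to 1091 and 1109 CPM. Simple epithelial keratins rose in 5 of 5 that passed the filter. Krt8 went from 26.5 and 24.1 CPM to 1779 and 1676 CPM, Krt18 from 2.82 and 3.21 CPM to 1289 and 1250.0 CPM, and Krt19 from 0.537 and 0.438 CPM to 434 and 439.5 CPM. Epithelial adhesion genes were called higher in 15 of 18, such as the claudin Cldn6, from 7.18 and 7.95 CPM to 243.5 and 242.5 CPM, and Epcam, from 27.3 and 23.3 CPM to 179 and 175 CPM. Cdh1 (E-cadherin) stood at 811 and 728 CPM before and rose to 1130 and 1186 CPM, while Cdh2 (N-cadherin) rose from 9.06 and 8.24 CPM to 168.5 and 175 CPM. Mesenchymal genes were called higher in 11 of 13, among them Snai1, a repressor of E-cadherin, from 1.54 and 1.90 CPM to 49.8 and 56.9 CPM.

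Fibroblast matrix genes, which also mark feeder cells, were called higher in 17 of 21 and lower in 1. Their summed level was 102.5 and 105 CPM in undifferentiated oeYy1 cells and 1393 and 1355 CPM on day 6, and in oeCtrl cells 42.6 and 34.8 CPM and then 1348 and 1330.0 CPM. Col5a1, a fibrillar collagen chain, rose from 15.8 CPM in both libraries to 559 and 554 CPM, and Col1a1, the main collagen of fibroblasts, from 4.97 and 3.43 CPM to 212 and 195 CPM. Some other fibroblast markers, picked after their values were seen, were low on day 6. Lum stood at 0.136 and 0 CPM, Thy1 at 1.09 and 1.86 CPM, Dcn at 2.66 and 2.34 CPM, and Fap had 1 count in all. The part of feeder cells in the matrix, contractile and mesenchymal genes above was not tested.

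Readouts of ERK signalling rose together. Of 12 feedback inhibitors 11 were called higher and none lower, with a median of 1.56. Dusp4 and Dusp6, phosphatases that turn ERK off, rose from 8.59 and 6.49 CPM to 276 and 274 CPM and from 18.7 and 18.96 CPM to 206 and 186 CPM. Of 18 immediate early and ERK-driven factors, 14 were higher and 3 lower, with a median of 3.33. Egr1, a zinc finger early gene, rose from 2.42 and 2.84 CPM to 305 and 329 CPM (log2 change 6.91, SE 0.20, adjusted p = 1.34e-14). Fos and Fosb, partners in AP-1, rose from 2.01 and 3.14 CPM to 149 and 151 CPM and from 0.336 and 0.365 CPM to 57.3 and 61.6 CPM. Etv5, an ETS factor that naive cells also use, was among those that fell, from 405 and 398 CPM to 149 and 158 CPM. Among FGF ligands and receptors 10 of 14 were higher and 3 lower, and Fgfr1, the main receptor of the epiblast, rose from 187 and 194 CPM to 516 and 526 CPM.

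In the BMP list 13 of 18 were called higher and 2 lower, or 1 lower without day 6 replicate 2. Bmp2 rose from 0.0671 and 0.219 CPM to 63.9 and 62.2 CPM and Bmp4 from 20.7 and 21.7 CPM to 156 and 163 CPM. Their target Id1, an inhibitor of helix-loop-helix factors, rose from 1.01 and 0.948 CPM to 96.8 and 83.1 CPM, and Nog, a secreted antagonist, from 0.470 and 0.0729 CPM to 62.2 and 67.98 CPM. In the Wnt list 10 of 16 were higher and 2 lower, or 1 lower without undifferentiated replicate 1 or day 6 replicate 2, with the feedback genes Nkd1 at 46.6 and 47.6 CPM and Dkk1 at 24.0 and 23.4 CPM on day 6, from at most 4.16 CPM. Sfrp1, a secreted Wnt antagonist, fell from 430 and 390.1 CPM to 12.7 and 14.5 CPM. In the Nodal list 6 of 14 were higher and 6 lower, close to the shares among all genes. Nodal itself stood at 78.0 and 75.2 CPM and then 74.1 and 71.8 CPM (adjusted p = 0.640), and its coreceptor Tdgf1 (Cripto) fell from 731.5 and 675 CPM to 196 and 204 CPM.

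Retinoic acid genes were called higher in 10 of 14 and lower in 3. Cyp26a1, which degrades retinoic acid and marks the streak and tail bud, rose from 0.201 and 0.146 CPM to 127.5 and 121 CPM (log2 change 9.41, SE 0.20, adjusted p = 9.32e-20). Notch genes were higher in 9 of 13 and lower in 1, including the receptor Notch3, from 114 and 113 CPM to 472 and 455 CPM, and the presomitic ligand Dll3, from 1.41 and 1.02 CPM to 24.5 and 25.4 CPM. Of 12 LIF-STAT3 genes 4 were higher and 7 lower. The receptor Lifr fell from 115 and 135 CPM to 36.3 and 33.9 CPM and the feedback inhibitor Socs3 from 124 and 122 CPM to 37.0 and 39.2 CPM, while the ligand Lif rose from 4.63 and 4.01 CPM to 27.7 and 28.7 CPM.

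Hox genes, which set position along the body axis, rose in 3 clusters and split in the fourth. Of 34 that passed the filter among 39, 23 were called higher and 3 lower. By cluster, 8 of 9 Hoxa, 6 of 9 Hoxb and 6 of 7 Hoxd genes were called higher and none lower, while in Hoxc 3 of 9 were higher and 3 lower. The levels stayed modest, and the highest was that of Hoxd9 at 21.7 and 24.2 CPM, from 0.739 and 0.146 CPM. Hoxa9 had 1 count before and 9.74 and 10.5 CPM after. The 3 falls were those of Hoxc10, Hoxc12 and Hoxc13 at the 5′ end of the cluster. Hoxc13 fell from 17.2 and 19.03 CPM to 0.954 and 1.51 CPM, and Hoxc12 from 7.32 and 6.42 CPM to no count, at least 33.5-fold lower.

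Of 16 genes of the DNA methylation machinery 7 were called higher and 7 lower, near the shares among all genes, with a median of -0.11. Dnmt3l (chr10:78042287-78063622), the cofactor of de novo methyltransferases, stood at 224 and 240.0 CPM before and at 2.997 and 2.13 CPM on day 6 (log2 change -6.49, SE 0.26, adjusted p = 1.44e-11). Dnmt3a rose from 30.0 and 28.4 CPM to 107 and 113 CPM (log2 change 1.92, adjusted p = 6.04e-15). Dnmt3b stood at 120 and 123.5 CPM and then 186 and 182 CPM, a log2 change of 0.59 (SE 0.22, adjusted p = 0.0327). That call was lost without any of the 4 libraries in turn, where the adjusted p lay between 0.0706 and 0.0877, and at 0.0593 with no count filter. Dnmt1, the maintenance enzyme, and its recruiter Uhrf1 fell from 562 and 559 CPM to 266 and 270.3 CPM and from 873.5 and 819 CPM to 251.3 and 239 CPM. The dioxygenases Tet1 and Tet2 fell from 544 and 600.1 CPM to 52.6 and 60.5 CPM and from 198 and 204 CPM to 16.4 and 16.0 CPM. Zfp57, which protects imprints, fell from 652 and 683 CPM to 108 and 111 CPM.

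Imprinted genes were called higher in 16 of 25 and lower in 7. The strongest rise was that of H19, a noncoding RNA, from 1.61 and 1.31 CPM to 527 and 625 CPM (log2 change 8.61, SE 0.15, adjusted p = 3.73e-21). Its neighbour Igf2, a growth factor expressed from the other parental copy, rose from 4.70 and 3.87 CPM to 236 and 245 CPM. Peg3, a zinc finger gene, and Nnat, neuronatin, rose from 87.3 and 97.9 CPM to 1682 and 1771 CPM and from 2.95 and 2.92 CPM to 177 and 191 CPM. The noncoding RNAs of the Dlk1-Meg3 region fell, with Meg3 from 763 and 793 CPM to 323 and 333 CPM and Rian from 1155 and 1238 CPM to 283 and 291 CPM, while Dlk1 rose from 0.470 and 0.146 CPM to 13.5 and 12.6 CPM. The counting strand is not stated, so overlapping transcripts of these regions cannot be told apart.

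Germline genes that DNA methylation silences in somatic cells were called lower in 12 of 16 and higher in 1, against 36.9% lower among all genes. Hormad1, a meiotic chromosome protein, went from 13.9 and 13.5 CPM to no count, at least 66.7-fold lower. Rpl10l, a germline copy of a ribosomal gene, fell from 21.1 and 21.3 CPM to 0.272 and 0.0687 CPM. Tuba3a, a testis tubulin, fell from 22.6 and 17.9 CPM to 1 count, a ratio of 589 with a counting interval from 106 to 23300. Tdrd1, a tudor protein of the piRNA pathway, rose from 0.806 and 0.948 CPM to 4.70 and 3.71 CPM. Of the 12 largest falls among all genes, 11 had no count on day 6. Among these were Sohlh2, a germline helix-loop-helix factor, at 44.9 and 45.7 CPM before and at least 220.5-fold lower, Fkbp6, a meiotic chaperone, at least 155.5-fold lower, and Ooep and Zp3, oocyte proteins, at least 143-fold and 90.0-fold lower. The other largest falls were Phf11d, Spic, Accsl, Tcl1, Lrrc31, Slfn9 and Gstp2, besides Hormad1.

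Lists of chromatin complexes had medians between -0.34 and -0.19. In Polycomb repressive complex 2, 5 of 11 genes were called lower and 1 higher, near the 36.9% lower among all genes. The accessory subunit Mtf2 fell from 271 and 281.5 CPM to 92.8 and 96.2 CPM and the core subunit Suz12 from 342 and 355 CPM to 121 and 113.5 CPM. Its catalytic subunit Ezh2 stood at 169 and 170.1 CPM and then 160 and 154 CPM and was not called (adjusted p = 0.152). Of 20 H3K4 methylation and deacetylase genes 10 were lower and 5 higher, or 3 higher without undifferentiated replicate 2 or day 6 replicate 2, with Wdr5, a scaffold of the methyltransferases, at 469 and 465 CPM before and 151 CPM in both day 6 libraries. Of 17 INO80 and cohesin genes 11 were lower and 3 higher, the latter 6 when only the ES libraries were fitted. Ino80, the ATPase of a remodeller that works with YY1, fell from 169 and 170.3 CPM to 61.0 and 64.1 CPM. The cohesin subunits moved apart, as Stag1 fell from 213 and 231.5 CPM to 111.5 and 109 CPM and Stag2 rose from 94.3 and 93.9 CPM to 174 and 186 CPM.

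Among genes of threonine, serine and one-carbon metabolism, 14 of 18 were called lower and 2 higher, 6 of them at least 2-fold lower, with a median of -0.78. Tdh, threonine dehydrogenase, on which mouse ES cells rely for one-carbon units, fell from 362 and 369 CPM to 0.681 and 0.687 CPM (log2 change -9.05, SE 0.32, adjusted p = 8.64e-11). Its partner Gcat fell from 197 and 192 CPM to 22.1 and 18.9 CPM. Of 22 glycolysis genes 9 were higher and 11 lower. The glucose transporters Slc2a1 and Slc2a3 rose from 239 and 230.1 CPM to 1327 and 1323 CPM and from 1481 and 1474 CPM to 4748 and 4702 CPM, whereas Pfkp, a phosphofructokinase, fell from 420.5 and 413 CPM to 37.3 and 34.9 CPM. Cholesterol genes were lower in 13 of 22, 6 of them at least 2-fold, and higher in 4, with Insig1, the sterol sensor, going from 235 and 214 CPM to 51.9 and 57.1 CPM. Nuclear oxidative phosphorylation genes were higher in 46 of 77 and lower in 19, with a median of 0.34.

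Cytosolic ribosomal protein genes were called higher in 47 of 80 and lower in 21, with a median of 0.37 and a range from -1.09 to 4.36. Rpl23a at the upper end went from 28.4 and 28.6 CPM to 548 and 624 CPM, while Rpl10 stood at 709 and 738 CPM and then 589 and 488 CPM. These genes have many near-identical copies that share reads, so single values are uncertain. Of 13 mRNAs of the mitochondrial genome 5 were higher and 6 lower, or 3 higher without undifferentiated replicate 1 or day 6 replicate 2, with mt-Co1, the most abundant of those named, at 15040 and 16080 CPM before and 6305 and 7521 CPM after. G2/M genes were lower in 13 of 20 and higher in 3, by small amounts, with Ube2c, a mitotic ubiquitin enzyme, at -1.21 and Cdk1 at 0.66 on the log2 scale. Targets of p53 were higher in 15 of 19 and lower in 3. Pmaip1 (Noxa), a proapoptotic target, rose from 6.71 and 5.91 CPM to 185 and 187 CPM, and Plk2, a stress kinase, from 39.95 and 41.2 CPM to 381 and 378 CPM. Trp53 itself fell from 656.5 and 647 CPM to 308 and 305 CPM.

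The 12 largest fitted rises included 4 guanylate-binding protein genes of chromosome 3, which encode interferon-induced GTPases of cell-autonomous immunity. Gbp2 had no count in the undifferentiated libraries and 285 and 289 CPM on day 6, at least 1367-fold higher. Gbp2b, Gbp3 and Gbp7 went from no count to 79.5 and 84.0 CPM, 57.5 and 60.9 CPM, and 29.0 and 32.4 CPM, at least 389-fold, 282-fold and 146-fold higher. All 10 Gbp genes tested were called higher, and 9 of them also in oeCtrl cells. Near-identical copies in this family share reads, so the split among them is uncertain. Interferon-stimulated and antigen presentation genes were called higher in 15 of 22 and lower in 4, with a median of 1.88. Isg15, an interferon-induced ubiquitin-like protein, went from no count to 13.6 and 12.4 CPM, at least 61.9-fold higher, and Ifih1, a sensor of viral RNA, likewise to 13.5 and 12.99 CPM. Irf1, an activator of these genes, rose from 11.8 and 10.4 CPM to 119.5 and 121 CPM, and Tap1, the peptide transporter, from 3.56 and 3.14 CPM to 65.7 and 63.5 CPM. Stat2, a signal transducer of the type I response, fell from 139 and 127 CPM to 27.6 and 25.7 CPM.

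The promoters of 5 of these genes, picked by name, are shown. None of the 5 had a count in the undifferentiated oeYy1 libraries, nor had Ifih1, whose promoter is not shown. The letters GAAA, any 2 bases and GAAA again, a core of the element read by interferon regulatory factors, were chosen as a motif after the values were seen. Of the interferon-stimulated list, 19 genes have a window, and 9 of these, or 47.4%, hold the letters on either strand. The share was 3.46% among tested genes with a window and 3.44% among all windows. Neither these shares nor the Gbp matches that follow say anything about the response. The list was chosen for interferon-stimulated and antigen presentation genes, and the letters were chosen with the values known. Only 4 of the 10 Gbp genes have a window, and all 4 hold the letters, which are in capitals here and overlap in Gbp3 and Isg15.
Gbp2, chr3:142620413-142620712, plus strand: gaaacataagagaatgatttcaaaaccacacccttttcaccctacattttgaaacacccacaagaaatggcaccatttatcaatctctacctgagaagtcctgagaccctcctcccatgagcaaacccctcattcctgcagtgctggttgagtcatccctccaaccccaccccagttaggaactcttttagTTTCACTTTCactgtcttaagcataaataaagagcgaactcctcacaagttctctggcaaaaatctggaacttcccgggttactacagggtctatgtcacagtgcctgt
Gbp2b, chr3:142594597-142594896, plus strand: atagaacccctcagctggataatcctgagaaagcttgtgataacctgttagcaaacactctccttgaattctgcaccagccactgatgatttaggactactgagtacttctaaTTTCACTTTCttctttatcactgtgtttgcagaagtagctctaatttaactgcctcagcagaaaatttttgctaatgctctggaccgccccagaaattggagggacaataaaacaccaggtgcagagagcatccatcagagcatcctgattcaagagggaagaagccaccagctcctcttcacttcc
Gbp3, chr3:142559794-142560093, plus strand: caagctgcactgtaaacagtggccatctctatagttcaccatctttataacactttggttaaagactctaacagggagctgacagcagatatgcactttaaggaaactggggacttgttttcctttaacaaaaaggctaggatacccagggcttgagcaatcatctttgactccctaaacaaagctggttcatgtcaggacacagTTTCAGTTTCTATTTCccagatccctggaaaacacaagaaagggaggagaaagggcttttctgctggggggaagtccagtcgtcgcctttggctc
Gbp7, chr3:142530086-142530385, plus strand: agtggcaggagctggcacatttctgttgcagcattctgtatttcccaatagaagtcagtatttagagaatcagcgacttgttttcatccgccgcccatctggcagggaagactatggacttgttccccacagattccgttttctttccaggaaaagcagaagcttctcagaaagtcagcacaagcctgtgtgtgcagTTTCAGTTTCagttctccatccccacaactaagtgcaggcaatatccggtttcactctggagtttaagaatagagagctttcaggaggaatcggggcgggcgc
Isg15, chr4:156200769-156201068, minus strand: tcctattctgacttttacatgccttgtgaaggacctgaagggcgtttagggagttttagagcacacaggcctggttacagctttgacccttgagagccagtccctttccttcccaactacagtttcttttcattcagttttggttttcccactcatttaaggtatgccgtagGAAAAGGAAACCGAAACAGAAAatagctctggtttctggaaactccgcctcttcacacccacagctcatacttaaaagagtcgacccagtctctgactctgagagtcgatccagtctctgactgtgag
On the strand shown, the first match begins 59 bases before the annotated start in Gbp2, 137 in Gbp2b, 45 in Gbp3, 53 in Gbp7 and 78 in Isg15. The letters appear as their reverse complement in the Gbp windows and forward in Isg15.

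Of 13 neural genes 6 were called higher and 3 lower. Nes (nestin), an intermediate filament of neural and other progenitors and the member with the smallest p, rose from 39.01 and 33.98 CPM to 258 and 266.5 CPM (log2 change 2.84, SE 0.09, adjusted p = 3.89e-17). Pax3, Fabp7 and Sox10 were also called higher and stood under 3 CPM on day 6. The fixed neural markers Sox1 and Tubb3 fell, from 9.80 and 7.37 CPM to 0.136 and 0.138 CPM and from 91.2 and 92.6 CPM to 31.5 CPM in both, while Pax6 stayed under 1 CPM. Clustered protocadherins were higher in 6 and lower in 11 of 23 that passed among 56. The 11 became 6 without undifferentiated replicate 2 or without day 6 replicate 1, 7 without day 6 replicate 2, and 6 with DESeq2. Genes of the 2-cell-like state passed the filter in 8 of 14, of which 6 were called lower, 5 of them under 1 CPM in each of the 4 libraries and Eif1a the sixth. Zscan4 and Usp17l copies share reads, and this count was 3 without day 6 replicate 2 and 1 when only the 4 libraries compared were fitted. Genes of the Y chromosome summed to 28.0 and 27.6 CPM before and 69.7 and 65.0 CPM on day 6 in oeYy1 cells, and to 113 and 135 CPM and then 104 and 107 CPM in oeCtrl cells. Ddx3y, a Y-linked helicase, rose from 11.2 and 10.7 CPM to 32.5 and 30.5 CPM (log2 change 1.53, adjusted p = 1.05e-10), and the difference from oeCtrl cells was 1.62 (SE 0.15, adjusted p = 4.80e-08).

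**Figure D2:**
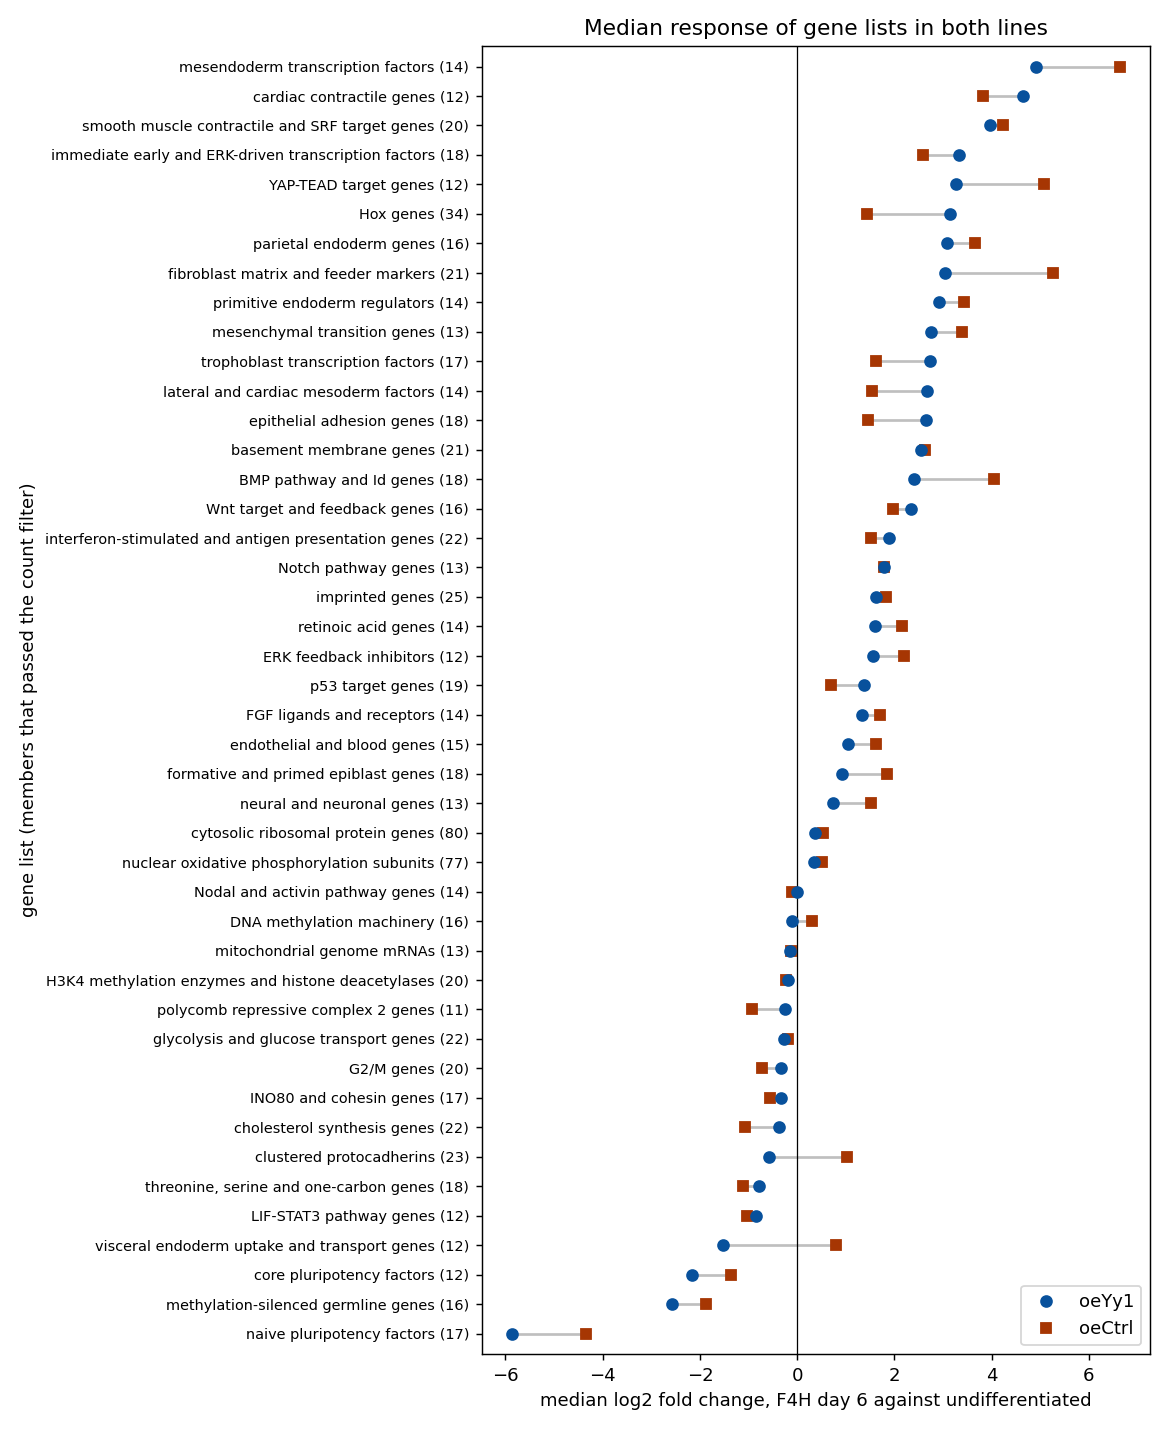
Median log2 fold change from undifferentiated cells to day 6 in oeYy1 cells (blue circles) and oeCtrl cells (brown squares) for each gene list with at least 10 members past the count filter, whose number is in parentheses. The medians lay on the same side of 0 for the naive list (-5.86 and -4.34) and the mesendoderm list (4.92 and 6.64), and on opposite sides for the protocadherins (-0.57 and 1.03). Genes without counts in a group enter with fitted values.

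The response of oeYy1 cells was set against that of oeCtrl cells by testing the difference between the responses. Of 17207 genes, 3052 (17.7%) had a response called higher in oeYy1 cells and 3423 (19.9%) one called lower. The direction was mostly shared, since 9543 genes were called the same way in both lines and 687 in opposite ways. Of the genes with a called difference, 3332 were called the same way in both lines, and among these the change was larger in oeYy1 cells for 1694 and smaller for 1638. All 12 largest rises and all 12 largest falls of oeYy1 cells were also called in the same direction in oeCtrl cells.

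For pluripotency genes the difference was mostly lower, that is, the fall was larger in oeYy1 cells. It was called lower for 13 of 17 naive and 9 of 12 core genes and higher for 1 in each list, against 19.9% and 17.7% among all genes. For Nanog it was -1.01 (SE 0.11, adjusted p = 6.07e-07), and oeCtrl cells went from 980 and 1035 CPM to 35.2 and 34.8 CPM. For Esrrb it was -1.84, for Pou5f1 -0.98, for Klf4 -0.62 and for Sox2 -0.43. On day 6 the oeYy1 libraries lay below both oeCtrl libraries for each of these 5 genes. The undifferentiated oeYy1 libraries lay above both oeCtrl libraries for Nanog, Pou5f1, Klf4 and Sox2, which adds to the larger fall. Pou5f1 started at 229 and 236 CPM against 166 and 159 CPM in oeCtrl cells. Klf4 started at 426 and 398 against 308 and 335.5 CPM. Sox2 started at 478 and 471 against 401 and 360 CPM, and ended at 34.05 and 36.8 against 38.8 and 37.7 CPM. Tdh ended at 11.01 and 12.9 CPM in oeCtrl cells against 0.681 and 0.687 CPM, a difference of -4.59 (SE 0.47, adjusted p = 1.52e-05).

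**Figure D3:**
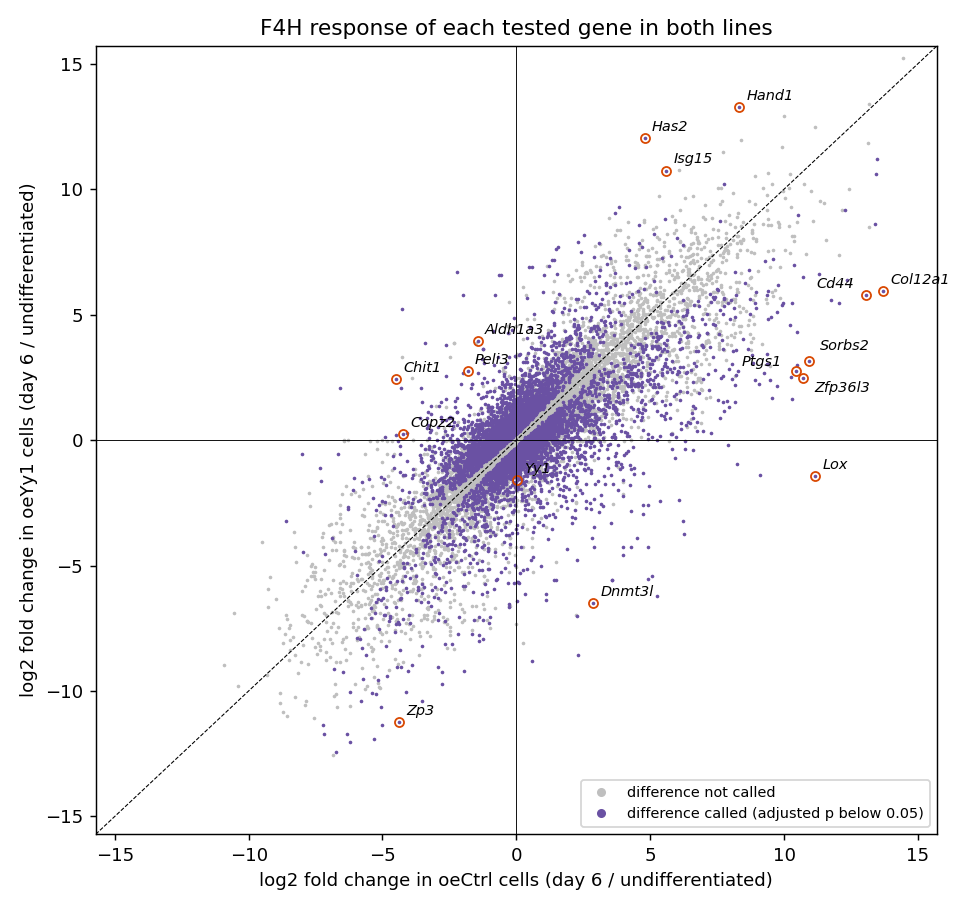
Log2 fold change from undifferentiated cells to day 6 in oeCtrl cells (horizontal) and oeYy1 cells (vertical), with 1 point per tested gene and the dashed line at equal change. Purple points have a called difference. Genes with some of the largest differences and Yy1 are circled, among them Lox at -1.45 in oeYy1 and 11.17 in oeCtrl cells and Dnmt3l at -6.49 and 2.86.

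For several genes the lines already stood apart in the undifferentiated state. Dnmt3l had 224 and 240.0 CPM in undifferentiated oeYy1 cells but 2.59 and 2.78 CPM in oeCtrl cells, which rose to 18.2 and 21 CPM, giving a difference of -9.36 (SE 0.38, adjusted p = 7.87e-10). Chit1, a chitinase, and Aldh1a3, which makes retinoic acid, were at 28.7 and 27.9 CPM and at 21.5 and 21.6 CPM in undifferentiated oeCtrl cells and under 1 CPM in oeYy1 cells. They fell in oeCtrl cells and rose in oeYy1 cells to 3.47 and 3.02 CPM and to 4.77 and 4.12 CPM, with differences of 6.92 (SE 0.48, adjusted p = 9.40e-10) and 5.41 (SE 0.46, adjusted p = 1.49e-08).

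Fibroblast matrix genes had a lower response in oeYy1 cells for 13 of 21 and a higher one for none. Their summed levels on day 6, given above, were close in both lines, and the undifferentiated sum was higher in oeYy1 cells. Mmp2, a matrix protease, ended at 167 and 168 CPM in oeYy1 cells, above the 81.4 and 78.3 CPM of oeCtrl cells. It started from 6.58 and 6.20 CPM and from 2.45 and 1.70 CPM. Its rise was smaller in oeYy1 cells (difference -0.56, SE 0.20, adjusted p = 0.0354). Bgn, the proteoglycan biglycan, likewise ended higher in oeYy1 cells, at 62.4 and 65.5 CPM against 39.1 and 38.1 CPM. Col1a1 ended higher in oeCtrl cells. It reached 325 and 319.6 CPM in oeCtrl cells from 0.909 and 1.56 CPM, with a difference of -2.43 (SE 0.26, adjusted p = 3.27e-07). Lox, which crosslinks collagen, fell from 2.75 and 3.06 CPM to 1.36 and 0.756 CPM in oeYy1 cells, while in oeCtrl cells it rose from no count to 16.4 and 18.7 CPM. In smooth muscle genes the difference was lower for 9 of 20 and higher for 1. Tagln ended at 1545 and 1450.0 CPM in oeCtrl cells, above the 827 and 790.1 CPM of oeYy1 cells (difference -1.57, SE 0.28, adjusted p = 1.45e-04).

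The Hox response was higher in oeYy1 cells for 12 of 34 and lower for 1, with Hoxd9 at 15.0 and 15.7 CPM and Hoxa9 at 2.13 and 2.78 CPM in day 6 oeCtrl cells. For Hoxd9 the difference was 3.35 (SE 0.41, adjusted p = 1.70e-06). Undifferentiated oeCtrl cells already had Hoxd9 at 3.01 and 3.26 CPM, above the 0.739 and 0.146 CPM of oeYy1 cells. On day 6 oeYy1 cells had 21.7 and 24.2 CPM, so this difference lies mostly in the undifferentiated levels. For cholesterol genes the difference was higher for 16 of 22 and lower for 2. Their median response was -0.37 in oeYy1 and -1.07 in oeCtrl cells, a smaller fall in oeYy1 cells. For Dhcr7, the last enzyme of one branch, the difference was 1.29 (SE 0.14, adjusted p = 4.20e-07). Dhcr7 fell in both lines, from 194 and 166 CPM in oeYy1 and from 307 and 322 CPM in oeCtrl cells. G2/M genes had a higher response for 9 of 20 and a lower one for none. Their median response was below 0 in both lines, -0.34 in oeYy1 and -0.72 in oeCtrl cells. Their summed level started at 4603 and 4729 CPM in oeYy1 and at 5067 and 5457 CPM in oeCtrl cells. Among primitive endoderm regulators Gata4 rose in oeYy1 cells and stood at 11.5 and 13.02 CPM and then 11.3 and 9.90 CPM in oeCtrl cells (difference 2.45, SE 0.20, adjusted p = 9.00e-09).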

How the data were processed

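Total RNA of cultured mouse cells was sequenced, and the authors deposited 1 table of raw counts per gene symbol and library, with 47517 symbols and summary lines in the form HTSeq writes. Per the submitters' processing notes, the tools were CASAVA and Bowtie2 2.3.2 and the builds GRCm38.p6 and mm10, with no role given. The counting tool and strand setting are not given in the sources used here. Summary lines, among them 6.50 to 7.16% of reads outside genes in the 4 libraries, were left out.

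The test was that of edgeR 4.0.16 under R 4.3.3, on the counts (TMM factors, filterByExpr by group, robust quasi-likelihood F-test) over 16 libraries in 8 groups, so that groups of 2 share an estimate of the spread. Adjusted p is Benjamini-Hochberg over all 17207 genes tested, with a call under 0.05. CPM are TMM-normalised, and an SE is the log2 change over the root of F. A fold against a group without counts is a lower bound from 3 counts per library. With 1 to 3 counts a ratio has an exact 95% Poisson interval. Both cover counting error only.

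Named genes are Yy1, the 12 largest rises and falls with at least 5 CPM on average and groups without overlap, for each list the called genes with the smallest p, at most 5, a fixed set of lineage and methylation genes, and for the difference the 8 largest each way. Unnamed clones and pseudogenes were left out, and a few genes are not reported here. Others, such as Cer1, Foxa2, Gsc, Lum, Thy1, Dcn, Tal1, Ezh2, Rpl10 and the collagen IV chains, were chosen after their values were seen. The members and the 49 lists were chosen with earlier results of these data known. Promoter windows cover fewer than 80% of the called genes, so motif shares over the called genes are void and are not given. Windows cover only 11676 of the 17207 tested genes. The shares printed for lists and for tested genes are therefore descriptions only.

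No replicate pair was a copy. On simulated data with 200 changed genes among 16908, 62.7, 77.6 and 90.9% of changes of 1.5-fold, 2-fold and 4-fold in the response were called. False calls made up 6.10%. In the difference 23.9, 70.1 and 71.2% were called among 17020 genes. In the data 12502 genes (72.7%) were called in the response, a far larger share than was simulated, so these rates may not carry over. Alternatives were RLE factors, no count filter, smaller sets of libraries, DESeq2 1.42.0, a replicate block, leaving out mitochondrial genes and leaving out each library.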

Additional observations from a re-analysis of the deposited data

Results flagged for a closer look

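The response to F4H was called different between oeYy1 and oeCtrl cells for the named genes below, by a test of the difference itself in edgeR. All values are differences in log2 change, oeYy1 minus oeCtrl, over 2 libraries per group.

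Among the largest positive differences, those of Chit1 (6.92), Aldh1a3 (5.41) and Peli3 (4.56) belong to genes that rose in oeYy1 and fell in oeCtrl cells. Copz2 (4.48) fell in oeCtrl cells. The values of Has2 (7.25), Isg15 (5.15) and Hand1 (4.95) rest on undifferentiated oeYy1 libraries without counts. With such groups at the floor of 3 counts per library the differences are 2.46, 0.36 and 0.16.

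Of the 8 largest negative differences, Dnmt3l (-9.36) fell in oeYy1 and rose in oeCtrl cells. Lox (-12.62) did so as well, from undifferentiated oeCtrl libraries without counts. Such libraries also underlie Zfp36l3 (-8.24), Sorbs2 (-7.80), Col12a1 (-7.78), Ptgs1 (-7.70) and Cd44 (-7.29). At the floor these 6 genes have values of -7.86 for Lox, -3.47 for Zfp36l3, -3.03 for Sorbs2, -3.02 for Col12a1, -2.94 for Ptgs1 and -2.53 for Cd44. Zp3 (-6.86) had no count in day 6 oeYy1 libraries, and its value at the floor is -2.10.

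Among the genes of the fixed set, Yy1 (-1.60), Nanog (-1.01), Pou5f1 (-0.98), Sox2 (-0.43), Klf4 (-0.62) and Esrrb (-1.84) had lower responses in oeYy1 cells. So did Sox17 (-2.15), Dnmt3a (-0.53) and Dnmt3b (-1.67). Eomes (0.86), Gata4 (2.45) and Gata6 (2.92) had higher ones.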

How the results depend on the processing

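The counts of genes called in the response and in the difference stayed within 1.5 times their values under every alternative run. Leaving out each of the 8 ES libraries in turn gave 5795 to 6267 genes higher and 5526 to 6443 lower, 4043 to 4244 and 3118 to 3537 at least 2-fold, and 2514 to 2730 higher and 2579 to 2990 lower differences. A group left with 1 library was assumed to vary like the others. DESeq2 called 11907 genes in the response, of which 11747 were shared with edgeR. Same-numbered libraries did not deviate together (r from -0.0228 to 0.0679 over 11017 genes), so numbers pair nothing. With a replicate block, 12488 genes were called in the response, 6127 higher and 6361 lower, and 12424 were shared with the fit without it. In the difference the block gave 3043 higher and 3406 lower. Of 253 named genes of the response, 246 kept direction and call, and none reversed. Kdm5d, Dnmt3b, Zscan4c, Zscan4d, Zscan4f, Soat2 and Apom lost the call under at least 1 alternative, and the cause was not tested. Counts of small lists moved more, such as 2-cell-like genes called lower, 6 of 8 against 1 with the 4 libraries compared alone.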
